A study of Homo sapiens with 24 samples.

Results

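The 10 genes described here code for the Notch receptors NOTCH1, NOTCH2, NOTCH3 and NOTCH4, the ligands JAG1, JAG2 and DLL1, and the target genes HES1, HEY1 and HEYL. They were chosen by their place in the pathway and looked up by Ensembl identifier among the 60279 genes counted in each of 24 RNA-Seq libraries. All 10 were among the 19997 genes tested, those with a mean count of 5 or more per library.

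Poly(A) RNA was sequenced from SW872, an established human liposarcoma line, to ask whether the sarcoma fusion proteins TAZ-CAMTA1 and YAP-TFE3 carry the transcriptional programs of their parent proteins. Every group was made by retroviral transduction and drug selection, so each library came from a pool of stable cells rather than a clone, and each group held 3 libraries. The groups carried empty vector (EV), TAZ-CAMTA1, TAZ4SA, YAP-TFE3, YAP5SA or TFE3 and were collected 48 h after confluence, or carried CAMTA1 or empty vector (EVsub) and were collected before confluence. TAZ4SA and YAP5SA are forms of the Hippo pathway effectors TAZ and YAP with alanines at serines that the LATS kinases phosphorylate. All constructs came on top of the cells' own YAP1, WWTR1, TFE3 and CAMTA1 genes.

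Notch receptors are single-pass membrane proteins that are activated by ligands on a neighboring cell. Binding exposes the receptor to cleavage by ADAM metalloproteases and then by γ-secretase, which releases the intracellular domain to the nucleus, where it joins the DNA-binding protein RBPJ and Mastermind coactivators and turns on HES and HEY repressors. JAG1 is also known as a gene that responds to YAP and TAZ in several tissues. Because the ligand sits on the adjacent cell, Notch signaling depends on cell contact. The planned comparisons were therefore made within the same density unless density itself was compared. Orders of levels hold all groups, and a step between densities can mix construct and density. Transcript levels do not measure receptor cleavage.

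Libraries held 19700277 to 35287476 counts each. Counts of the construct genes rose with their labels for CAMTA1, TFE3 and YAP5SA, but WWTR1, the gene of TAZ, stood at 134 ± 0.539 CPM (a gene's count relative to the scaled size of its library) in the libraries labelled TAZ4SA against 204 ± 20.3 CPM in EV (SD, n = 3). Within these counts, directions given for the libraries labelled TAZ4SA rest on that label alone. Separately, the paper reports a western blot for Flag-tagged TAZ4SA in SW872 cells. YAP-TFE3 replicate 3 stood apart from its group, with a chi-square per degree of freedom of 66.1 and 52.2 against replicates 1 and 2 and 10.3 between those. Every member call that involved YAP-TFE3 was kept without this library, and several of the values are given both ways. All 8 mesenchymal markers were detected. Of 7 adipocyte markers, ADIPOQ was at 0 in all 24 libraries, LEP and CIDEC never passed 3 counts and FABP4 never passed 23, whereas PPARG stood at 27.2 to 100.3 CPM, LPL at 30.6 to 268 CPM and PLIN1 at 0.361 to 1.24 CPM. Their sum was 303 to 369 CPM in YAP-TFE3, 148 to 222.5 CPM in EV and 62.5 to 72.6 CPM in the libraries labelled TAZ4SA. All 7 endothelial markers were tested and summed to 97.0 to 391 CPM, highest in the libraries labelled TAZ4SA (299 to 391 CPM), lowest in YAP5SA (97.0 to 127 CPM), and 208 to 255 CPM in EV. Epithelial markers summed to 6.87 to 16.8 CPM and hematopoietic markers to 1.54 to 3.38 CPM. Their part in the Notch results was not tested.

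The data were analyzed by group and by role. CPM denotes counts relative to a library size scaled by the trimmed mean of M-values, and a gene was called changed at an edgeR adjusted p under 0.05. Where levels of different genes are compared, CPM were divided by exon length in kilobases. In pooled cells, fewer cells that express a gene and less RNA per cell cannot be told apart. NOTCH1, NOTCH2, NOTCH3, JAG1, JAG2 and HEYL overlap microRNA genes or uncharacterized transcripts in the annotation, and HES1 and HEY1 overlap none. Comparisons against EV share the same 3 EV libraries and are not independent of each other.

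**Figure D1:**
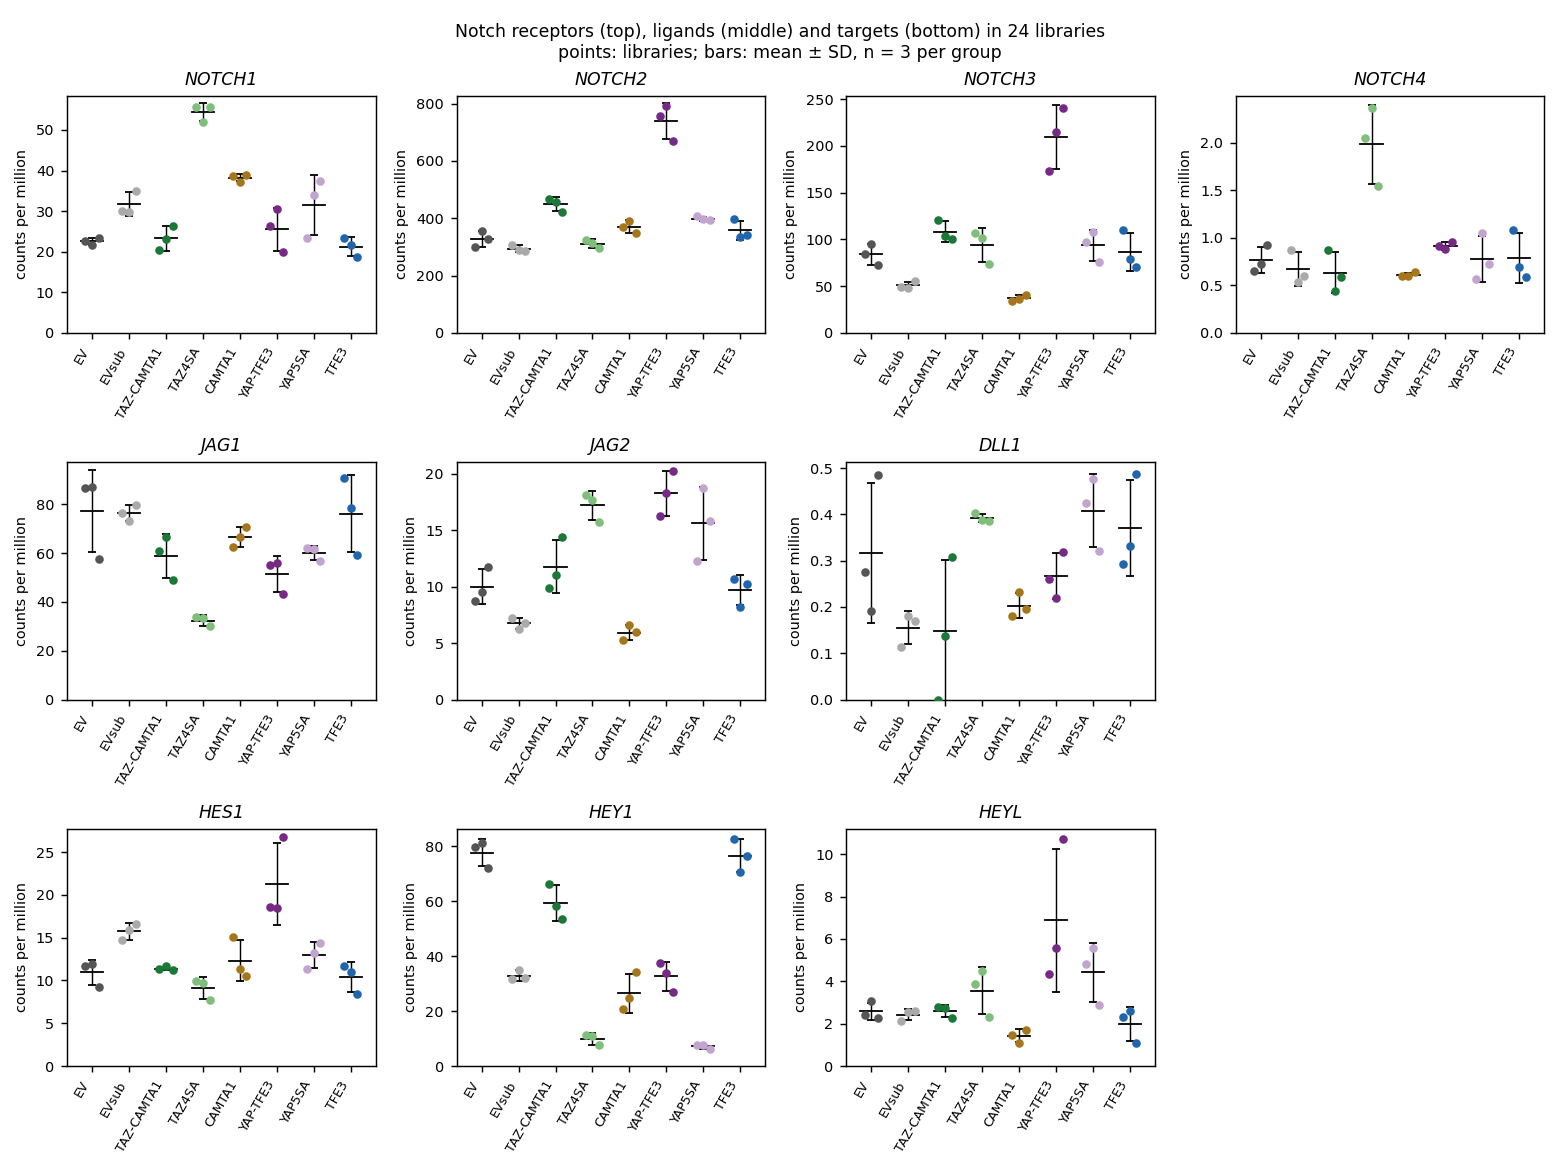
Level of each gene in CPM (vertical axis from 0) in the 3 libraries of each of 8 groups, with receptors in the top row, ligands in the middle row and targets in the bottom row, and bars for the mean ± SD. NOTCH2 and NOTCH3 were highest in YAP-TFE3, NOTCH1 in the libraries labelled TAZ4SA, and HEY1 was under 12 CPM in YAP5SA and in the libraries labelled TAZ4SA.

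NOTCH2 was the most abundant receptor and NOTCH4 was close to the limit of detection. Per kilobase of exon, NOTCH2 took 64.5% ± 2.25 of the summed receptor level in EV, NOTCH3 29.3% ± 2.54 and NOTCH1 5.94% ± 0.630 (SD, n = 3). The receptor sum in EV was 30.5 ± 2.44 CPM per kilobase, and it was 68.6 ± 3.57 in YAP-TFE3, where its 3 libraries (65.9 to 72.6) lay above all other libraries (24.9 to 42.5). CAMTA1 cells, collected before confluence, had the highest NOTCH2 share, 75.8% ± 2.03, and the lowest NOTCH3 share, 13.6% ± 1.56. In EVsub, their control of the same density, these shares were 68.7% ± 2.21 and 21.2% ± 1.38, so part of the distance from EV was also present without CAMTA1. NOTCH1 took its largest share, 13.2% ± 1.41, in the libraries labelled TAZ4SA.

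NOTCH2 (ENSG00000134250, chromosome 1, 119911553 to 120100779, minus strand) was raised by both fusions. Its EV libraries stood at 301, 357 and 330 CPM, those of TAZ-CAMTA1 at 468, 458 and 422 CPM, and those of YAP-TFE3 at 758, 791 and 670 CPM. The 3 groups did not overlap. The log2 fold change over EV was 0.45 ± 0.08 (SE) in TAZ-CAMTA1 (edgeR adjusted p = 0.00135) and 1.17 ± 0.08 in YAP-TFE3 (adjusted p = 5.71e-11). YAP-TFE3 exceeded TAZ-CAMTA1 by 1.65-fold (adjusted p = 2.13e-07), YAP5SA by 1.85-fold (adjusted p = 4.34e-09) and TFE3 by 2.07-fold (adjusted p = 3.66e-10). YAP5SA, at 407, 397 and 394 CPM, also lay above every EV library, although the increase was small (log2 fold change 0.28 ± 0.08, adjusted p = 0.00893) and it was lost without EV replicate 1 (0.22, adjusted p = 0.0653) and under total-count scaling (0.09, adjusted p = 0.292). Below YAP-TFE3, no neighbors in the order TAZ-CAMTA1, YAP5SA, CAMTA1, TFE3, EV, the libraries labelled TAZ4SA and EVsub differed by the test. The paralog NOTCH2NLA, which can share reads with NOTCH2, had 8 to 52 counts per library against 6425 or more for NOTCH2.

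NOTCH3 (ENSG00000074181, chromosome 19, 15159038 to 15200995, minus strand) was highest in YAP-TFE3 as well. It was counted at 173, 215 and 240 CPM in YAP-TFE3 and at 84.0, 95.6 and 73.1 CPM in EV, without overlap (log2 fold change 1.31 ± 0.16, adjusted p = 3.59e-07). Without YAP-TFE3 replicate 3, the highest library, the log2 fold change was 1.21 (adjusted p = 2.78e-06). NOTCH3 in YAP-TFE3 exceeded YAP5SA by 2.23-fold (adjusted p = 1.81e-06), TFE3 by 2.42-fold (adjusted p = 5.57e-07) and TAZ-CAMTA1 by 1.93-fold (adjusted p = 3.57e-05). TAZ-CAMTA1, at 121, 104 and 101 CPM, stood above every EV library but did not pass the test against EV (log2 fold change 0.36). At the other end, NOTCH3 was lower in both sub-confluent groups, with 49.2, 48.6 and 55.1 CPM in EVsub and 34.4, 36.3 and 40.9 CPM in CAMTA1. EVsub fell below EV by 0.72 on the log2 scale (SE 0.16, adjusted p = 0.00127), and the difference between CAMTA1 and EVsub did not pass the test (adjusted p = 0.191).

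NOTCH1 (ENSG00000148400, chromosome 9, 136494433 to 136546048, minus strand) followed a different order, in which YAP-TFE3 did not lead. The libraries labelled TAZ4SA stood at 55.6, 51.9 and 55.7 CPM against 22.5, 21.8 and 23.4 CPM in EV, the only group of the series above 40 CPM (log2 fold change 1.27 ± 0.15, adjusted p = 1.60e-07). TAZ-CAMTA1, at 20.3, 23.2 and 26.3 CPM, was 2.33-fold below the libraries labelled TAZ4SA (adjusted p = 2.32e-07) and overlapped EV. In YAP5SA the libraries were spread between 23.3 and 37.5 CPM, and 1 of them lay within the EV range. That increase (log2 fold change 0.49 ± 0.15, adjusted p = 0.00957) was lost without YAP5SA replicate 3 (0.34, adjusted p = 0.0780) and under total-count scaling (0.31, adjusted p = 0.111). NOTCH1 was also higher in EVsub (30.02, 29.9 and 35.05 CPM) than in EV (log2 fold change 0.49 ± 0.15, adjusted p = 0.0114), a call that was lost without EVsub replicate 3 (0.41, adjusted p = 0.0623). In the order of NOTCH1 levels the step from the libraries labelled TAZ4SA to CAMTA1, which also differ in density, passed the test (adjusted p = 0.00395), and no lower step did. YAP-TFE3 libraries ranged from 19.9 to 30.5 CPM, with replicate 3 the lowest. Without that library NOTCH1 passed the test against TFE3 (log2 fold change 0.42, adjusted p = 0.0176), which it did not with it.

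NOTCH4 (ENSG00000204301, chromosome 6, 32194843 to 32224067, minus strand), best known from endothelial cells, had only 12 to 55 counts per library. The libraries labelled TAZ4SA held 51, 55 and 40 counts and those of EV 19 each, or 2.05, 2.36 and 1.54 CPM against 0.656, 0.724 and 0.921 CPM (log2 fold change 1.38 ± 0.27, adjusted p = 0.000154). No library of another group reached 1.1 CPM, and the other 7 groups did not differ between neighbors. The gene overlaps GPSM3 on the same strand, so its counts are uncertain. The endothelial marker sum was also highest in the libraries labelled TAZ4SA, but most of it was TIE1, a receptor tyrosine kinase, at 300.1 CPM there against 93.7 CPM in EV. TIE1 and VWF were called higher than EV in those libraries, CDH5 did not pass the test, and PECAM1, KDR, TEK and ERG were called lower, with ERG, an endothelial transcription factor, at 0.556 CPM against 6.03 CPM in EV.

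JAG1 and JAG2, the 2 Jagged ligands, moved in opposite directions in YAP-TFE3 and in the libraries labelled TAZ4SA. JAG1 (ENSG00000101384, chromosome 20, 10637684 to 10673999, minus strand) stood at 86.7, 87.2 and 57.8 CPM in EV and at 34.0, 33.2 and 29.9 CPM in the libraries labelled TAZ4SA, which did not overlap (log2 fold change -1.26 ± 0.15, adjusted p = 2.77e-07). The YAP-TFE3 libraries, at 55.1, 56.2 and 43.1 CPM, were also below all EV libraries (log2 fold change -0.59 ± 0.15, adjusted p = 0.00193), and without YAP-TFE3 replicate 3 the decrease was 0.47 on the log2 scale (adjusted p = 0.0152). JAG1 in TAZ-CAMTA1 (60.8, 66.7 and 48.8 CPM) overlapped EV. It passed the test without EV replicate 3, the EV library with the least JAG1 (log2 fold change -0.57, adjusted p = 0.0235), but not with all libraries. For YAP5SA the call lay at the threshold (log2 fold change -0.36 ± 0.15, adjusted p = 0.0486) and was lost in 22 of 32 alternative analyses. The libraries labelled TAZ4SA held less JAG1 than YAP-TFE3 (adjusted p = 0.000542), and no other neighbors in the order differed.

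JAG2 (ENSG00000184916, chromosome 14, 105140982 to 105168824, minus strand) rose in 3 groups. It was counted at 8.73, 9.49 and 11.7 CPM in EV, 16.3, 18.3 and 20.3 CPM in YAP-TFE3, 12.3, 18.7 and 15.8 CPM in YAP5SA, and 18.2, 17.7 and 15.7 CPM in the libraries labelled TAZ4SA. None of these 3 groups overlapped EV, and their log2 fold changes were 0.88 ± 0.16 (adjusted p = 5.76e-05), 0.65 ± 0.16 (adjusted p = 0.00182) and 0.79 ± 0.16 (adjusted p = 0.000226), respectively. TAZ-CAMTA1 (9.89, 10.99 and 14.4 CPM) overlapped EV and was below the libraries labelled TAZ4SA by 0.55 on the log2 scale (adjusted p = 0.00479). That difference did not pass under total-count scaling (adjusted p = 0.0699). JAG2 was 1.47-fold lower in EVsub than in EV (adjusted p = 0.0104), a call lost without EV replicate 3 (adjusted p = 0.0751). In the order of levels, the steps from YAP5SA down to TAZ-CAMTA1 (adjusted p = 0.0355) and from TFE3 down to EVsub (adjusted p = 0.0123) passed the test, and no other neighbors did. Between TFE3 and EVsub, construct and density differ together. Within a library and per kilobase, the ratio of JAG1 to JAG2 was 5.51 ± 1.86 in EV, 1.97 ± 0.452 in YAP-TFE3, 2.73 ± 0.643 in YAP5SA and 1.30 ± 0.0113 in the libraries labelled TAZ4SA.

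DLL1 (ENSG00000198719, chromosome 6, 170282206 to 170306565, minus strand), a ligand of the Delta family, was near the limit of detection, with 0 to 15 counts per library. It overlaps FAM120B on the opposite strand, so even these counts are uncertain. TAZ-CAMTA1 libraries held 0, 4 and 10 counts, and the count of 0 allows up to 0.117 CPM. The comparison of TAZ-CAMTA1 with the libraries labelled TAZ4SA, which held 10, 9 and 10 counts, passed the test (log2 fold change -1.29 ± 0.49, adjusted p = 0.0310), although 1 TAZ-CAMTA1 library also held 10 counts. Without TAZ-CAMTA1 replicate 1 it was -0.80 (adjusted p = 0.131), and it was lost in 8 of 30 alternatives. No neighbors in the DLL1 order differed.

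HEY1 was the member with the largest changes, and its direction was downward in every group that was called against EV. HEY1 (ENSG00000164683, chromosome 8, 79762371 to 79767857, minus strand), a basic helix-loop-helix repressor, stood at 79.7, 81.3 and 72.2 CPM in EV. It stood at 11.2, 10.96 and 7.49 CPM in the libraries labelled TAZ4SA and at 7.60, 7.80 and 6.15 CPM in YAP5SA, which were 7.89-fold and 10.8-fold below EV (log2 fold changes -2.98 ± 0.17 and -3.44 ± 0.18, adjusted p = 1.00e-12 and 1.38e-13). The difference between these 2 groups did not pass the test (adjusted p = 0.138). YAP-TFE3, at 37.4, 33.8 and 26.8 CPM, held an intermediate level, 2.38-fold below EV (adjusted p = 3.60e-07) and 4.55-fold above YAP5SA (adjusted p = 1.95e-10). The TAZ-CAMTA1 libraries (66.4, 58.5 and 53.5 CPM) all lay below EV without passing the test (log2 fold change -0.39), and were 6.03-fold above the libraries labelled TAZ4SA (adjusted p = 8.66e-12). TFE3 libraries, at 82.7, 70.8 and 76.5 CPM, overlapped EV.

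The empty vector groups, collected at different densities, differed in HEY1 by about as much as YAP-TFE3 and EV did. EVsub held 31.6, 35.1 and 31.95 CPM, 2.37-fold below EV (log2 fold change -1.24 ± 0.15, adjusted p = 4.62e-06), and its difference from YAP-TFE3 did not pass the test (adjusted p = 0.959). CAMTA1 held 20.6, 24.6 and 34.4 CPM, and its difference from EVsub did not pass the test (log2 fold change -0.32). YAP5SA and the libraries labelled TAZ4SA, collected after confluence, lay below all libraries of both sub-confluent groups.

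HES1 and HEYL were higher than EV in YAP-TFE3, where HEY1 was lower. HES1 (ENSG00000114315, chromosome 3, 194136148 to 194138732, plus strand), another basic helix-loop-helix repressor, was counted at 18.6, 18.5 and 26.8 CPM in YAP-TFE3 and at 11.7, 11.9 and 9.21 CPM in EV, without overlap (log2 fold change 0.96 ± 0.16, adjusted p = 2.68e-05). Its increase over YAP5SA was 1.64-fold (adjusted p = 0.000598), over TFE3 2.05-fold (adjusted p = 8.78e-06) and over TAZ-CAMTA1 1.87-fold (adjusted p = 6.31e-05). Without YAP-TFE3 replicate 3, the highest library, the log2 fold change over EV was 0.76 (adjusted p = 0.000259). Over YAP5SA it was 0.51 without that library (adjusted p = 0.00703) and 0.71 with it. HES1 was also higher in EVsub (14.7, 15.9 and 16.6 CPM) than in EV (log2 fold change 0.52 ± 0.16, adjusted p = 0.0142), and this call was lost without EV replicate 3 (0.42, adjusted p = 0.0857) and without EVsub replicate 3 (0.48, adjusted p = 0.0519). With all libraries, sub-confluent empty vector cells thus had more HES1 and less HEY1 than confluent ones. YAP-TFE3 exceeded EVsub (adjusted p = 0.0215), a step in which construct and density differ together. Below YAP-TFE3 and EVsub, no neighbors in the order of HES1 levels passed the test.

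HEYL (ENSG00000163909, chromosome 1, 39623435 to 39639643, minus strand), a close relative of HEY1, was the least abundant target. It stood at 4.36, 5.59 and 10.7 CPM in YAP-TFE3 against 2.42, 3.05 and 2.28 CPM in EV, so that replicate 3 was far above the others. The log2 fold change was 1.42 ± 0.31 (adjusted p = 0.000549) with all libraries and 0.94 (adjusted p = 0.00897) without YAP-TFE3 replicate 3. HEYL exceeded TFE3 by 3.45-fold (adjusted p = 4.32e-05) and TAZ-CAMTA1 by 2.66-fold (adjusted p = 0.000608), or by log2 fold changes of 1.31 and 0.94 without that library. YAP5SA libraries, at 4.82, 5.57 and 2.89 CPM, overlapped YAP-TFE3, and their difference from EV did not pass the test (log2 fold change 0.76), although it passed in 8 of 32 alternatives. No neighbors in the order of HEYL levels differed.

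The 250 bases upstream of the RefSeq start are printed for HES1, HEYL and HES4, a further HES repressor, because they hold the core letters bound by RBPJ. These 3 were picked among the targets higher in YAP-TFE3 with both their values and the letters known. NRARP, an ankyrin-repeat protein that inhibits Notch and is a target itself, was also called higher there and its window held no match. It stood at 2.08, 3.24 and 4.14 CPM in YAP-TFE3, which overlapped EV (log2 fold change 0.60 ± 0.24, adjusted p = 0.0407), and the call was lost in 6 of 32 alternatives, among them the fits without YAP-TFE3 replicate 2 or 3 or EV replicate 2 or 3 (adjusted p = 0.0825, 0.247, 0.107 and 0.110). The sequences are from RefSeq on GRCh38.p14, 5′ to 3′ on the gene's strand, and capitals mark GTGGGAA or its reverse complement TTCCCAC. HES1 spans chr3:194135898-194136147 on the plus strand, HEYL spans chr1:39639644-39639893 on the minus strand and HES4 spans chr1:1000098-1000347 on the minus strand. GENCODE places the start of HES4 upstream of the RefSeq one, at 1000172. The last part of its window, with most of the marked letters, therefore lies inside that gene model.
HES1: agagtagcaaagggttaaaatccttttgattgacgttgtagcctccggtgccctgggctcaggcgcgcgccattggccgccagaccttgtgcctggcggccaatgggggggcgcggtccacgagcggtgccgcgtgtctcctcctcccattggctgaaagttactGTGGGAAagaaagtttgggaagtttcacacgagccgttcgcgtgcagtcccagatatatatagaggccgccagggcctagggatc
HEYL: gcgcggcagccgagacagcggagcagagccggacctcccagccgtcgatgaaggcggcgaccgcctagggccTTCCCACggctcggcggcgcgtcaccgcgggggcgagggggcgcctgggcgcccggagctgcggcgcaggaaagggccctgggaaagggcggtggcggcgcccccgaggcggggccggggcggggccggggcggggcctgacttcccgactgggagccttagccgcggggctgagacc
HES4: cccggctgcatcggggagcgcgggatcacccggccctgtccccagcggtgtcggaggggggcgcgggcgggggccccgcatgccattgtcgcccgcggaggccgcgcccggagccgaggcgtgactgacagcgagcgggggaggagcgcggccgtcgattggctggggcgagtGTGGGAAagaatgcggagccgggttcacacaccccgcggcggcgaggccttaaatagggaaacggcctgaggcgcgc

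The match began 85 bases before the RefSeq start in HES1, 178 in HEYL and 77 in HES4. Of the 8 members with a promoter in the table, 2 held GTGGGAA on either strand, as did 3 of 44 other pathway genes (HES4, HES5 and HEY2), while 5.46% of all 27305 promoters did. GGAATG, the core letters of TEAD sites, was in 0 of the 8 members, 3 of the 44 other pathway genes and 11.9% of all promoters. CACGTG, the E-box that TFE3 family factors bind, was in 0 of the 8, 3 of the 44 and 6.49% of all promoters. With only 8 members, a count of 0 cannot be told apart from these shares. DLL1 and HEY1 were not among the sequences. A match describes letters and not binding.

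**Figure D2:**
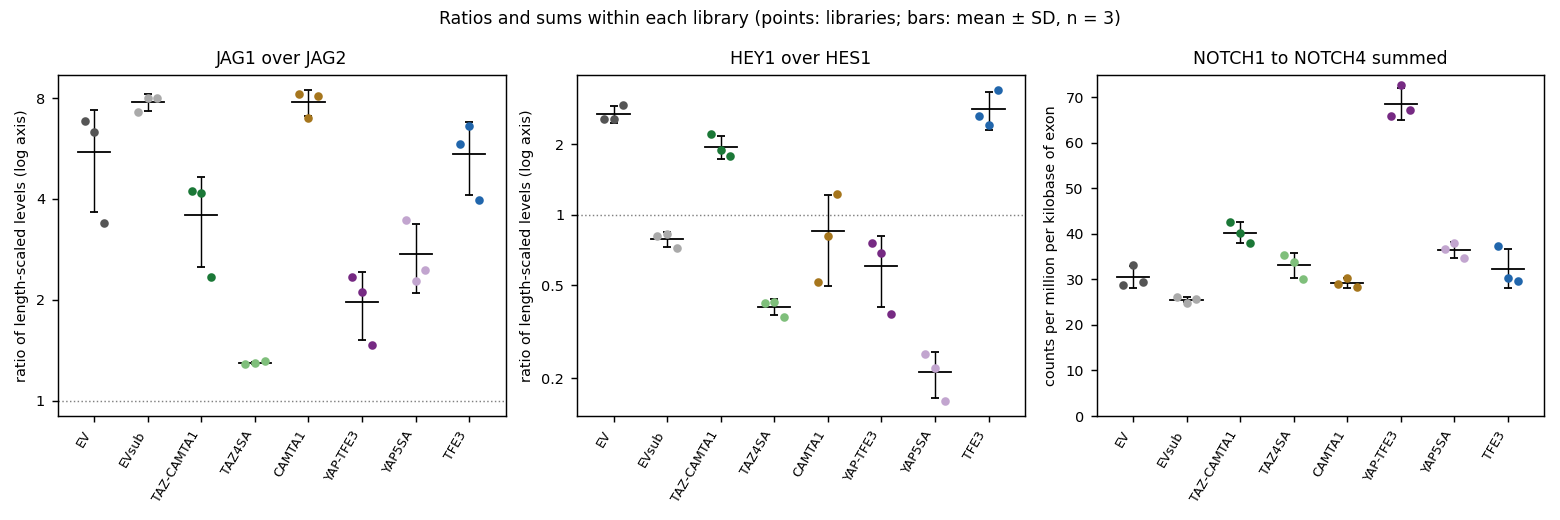
JAG1 over JAG2 and HEY1 over HES1, each as a ratio of length-scaled levels within a library (log axes), and the summed receptor level in CPM per kilobase of exon, for the 3 libraries of each group with mean ± SD. HEY1 over HES1 was 2.69 in EV and 0.211 in YAP5SA, and the receptor sum was highest in YAP-TFE3 at 68.6.

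The ratio of HEY1 to HES1 was taken within single libraries. Against EV both genes were called, in opposite directions, in YAP-TFE3 and EVsub, whereas in YAP5SA and in the libraries labelled TAZ4SA HEY1 was called and HES1 was not (HES1 log2 fold changes 0.24 and -0.27). Per kilobase, HEY1 over HES1 was 2.69 ± 0.220 in EV, 2.83 ± 0.525 in TFE3 and 1.96 ± 0.219 in TAZ-CAMTA1, and above 1.7 in each of their 9 libraries. It was 0.606 ± 0.202 in YAP-TFE3, 0.403 ± 0.0325 in the libraries labelled TAZ4SA, 0.211 ± 0.0470 in YAP5SA and 0.786 ± 0.0558 in EVsub, and below 0.9 in all 12 of those. CAMTA1 libraries lay on both sides of 1, between 0.515 and 1.23.

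**Figure D3:**
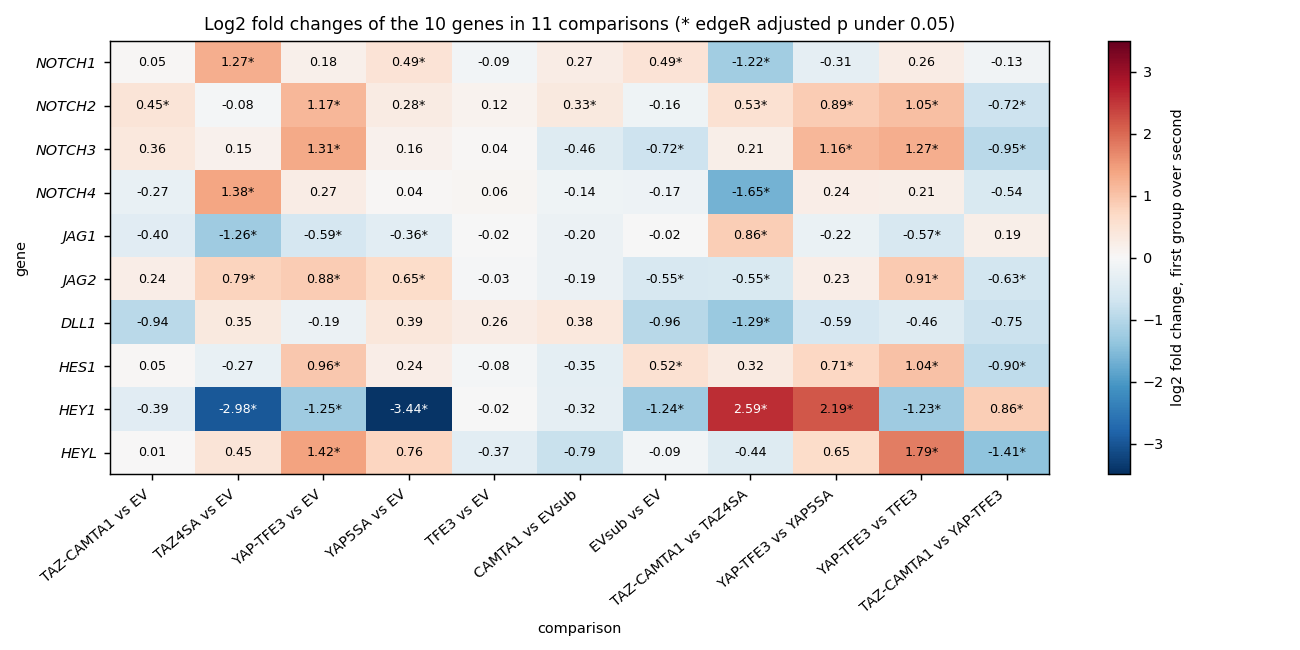
Log2 fold changes (first group over second, color scale from blue for lower to red for higher) of the 10 genes in 11 comparisons, with an asterisk for an edgeR adjusted p under 0.05. TFE3 against EV has no asterisk, and HEY1 carries the darkest cells, at -2.98 and -3.44.

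Counted over the members, TAZ-CAMTA1 changed 1 of 10 against EV, where 4.98% of all genes tested were called (3.55% higher and 1.44% lower). The libraries labelled TAZ4SA changed 5 of 10, 3 higher and 2 lower, against 49.2% of all genes (25.1% higher and 24.2% lower). YAP-TFE3 changed 7 of 10, 5 higher and 2 lower, against 48.2% (25.6% higher and 22.6% lower). YAP5SA changed 5 of 10, 3 higher and 2 lower, against 44.3% (22.7% higher and 21.6% lower), and 3 of 10 without EV replicate 1. For YAP5SA and the libraries labelled TAZ4SA the share of members called lay near that of all genes.

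Neither transcription factor parent moved the members in a stable way. In TFE3 against EV, edgeR called 0 of 10 members, 0 passed an unadjusted p under 0.05 and DESeq2 called 0, against 0.035% of all genes (0.035% higher and 0% lower, which were 7 and 0 genes, with 323 lower at an unadjusted p under 0.05 and 3 lower by DESeq2). The member differences in TFE3 ran from -0.37 for HEYL to 0.26 for DLL1 on the log2 scale. CAMTA1 against EVsub changed 1 of 10, against 1.83% (1.26% higher and 0.57% lower). This was NOTCH2, at 371, 392 and 348 CPM against 307, 290 and 285 CPM (log2 fold change 0.33 ± 0.08, adjusted p = 0.0365), and it was lost in 8 of 32 alternatives, among them the fits without CAMTA1 replicate 1 or 2 or without any of the 3 EVsub libraries (adjusted p = 0.0626 to 0.200). EVsub against EV changed 5 of 10, 2 higher and 3 lower, against 36.8% (19.8% higher and 17.1% lower), and 3 of 10 without EV replicate 3 or without EVsub replicate 3.

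Set against its hyperactive parent, TAZ-CAMTA1 differed from the libraries labelled TAZ4SA in 7 of 10 members, 3 higher (HEY1, JAG1 and NOTCH2) and 4 lower (NOTCH1, NOTCH4, JAG2 and DLL1), against 53.7% of all genes (26.9% higher and 26.8% lower). YAP-TFE3 differed from YAP5SA in 4 of 10, all higher, against 52.4% (28.1% higher and 24.3% lower). These were NOTCH2, NOTCH3, HES1 and HEY1. YAP-TFE3 differed from TFE3 in 7 of 10, 5 higher and 2 lower, against 48% (25.4% higher and 22.5% lower). The fusions differed from each other in 6 of 10, with HEY1 higher and NOTCH2, NOTCH3, JAG2, HES1 and HEYL lower in TAZ-CAMTA1, against 42.7% (19.9% higher and 22.8% lower).

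Whether TAZ-CAMTA1 and CAMTA1 differed in their effects was tested as an interaction, each against the empty vector of its own density. By edgeR 0 of 10 members passed, 1 did at an unadjusted p under 0.05 and DESeq2 called 1, against 2.51% of all genes (1.54% higher and 0.97% lower). The member was NOTCH3, for which the difference of effects was 0.82 ± 0.23 on the log2 scale (edgeR adjusted p = 0.0579), and it passed in 10 of 32 alternatives.

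The rest of the pathway was followed in 54 further genes, of which 53 were tested. HES5 was at 0 counts in all 24 libraries, which allows at most 0.0850 to 0.152 CPM. TAZ-CAMTA1 changed 5 of the 53 against EV (2 higher and 3 lower), the libraries labelled TAZ4SA 35 (15 and 20), YAP-TFE3 25 (15 and 10) and YAP5SA 31 (12 and 19). These were 9.43%, 66%, 47.2% and 58.5% of the 53, beside 4.98%, 49.2%, 48.2% and 44.3% of all genes tested. The median log2 fold changes over the 53 were 0.06, -0.09, 0.07 and -0.14, beside 0.005, -0.03, -0.01 and -0.04 over all genes tested. TFE3 changed 0 by edgeR, 0 at an unadjusted p under 0.05 and 0 by DESeq2, CAMTA1 3 against EVsub (3 higher), and EVsub 31 against EV (11 higher and 20 lower). By edgeR these were 0%, 5.66% and 58.5% of the 53, beside 0.035%, 1.83% and 36.8% of all genes. TAZ-CAMTA1 differed from the libraries labelled TAZ4SA in 37 (23 higher and 14 lower), YAP-TFE3 from YAP5SA in 36 (26 and 10) and from TFE3 in 27 (16 and 11), TAZ-CAMTA1 from YAP-TFE3 in 26 (11 and 15), and the interaction held 2 (1 and 1). These were 69.8%, 67.9%, 50.9%, 49.1% and 3.77% of the 53, beside 53.7%, 52.4%, 48%, 42.7% and 2.51% of all genes. For YAP-TFE3 against EV and against TFE3, the pathway share lay near that of all genes.

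**Figure D4:**
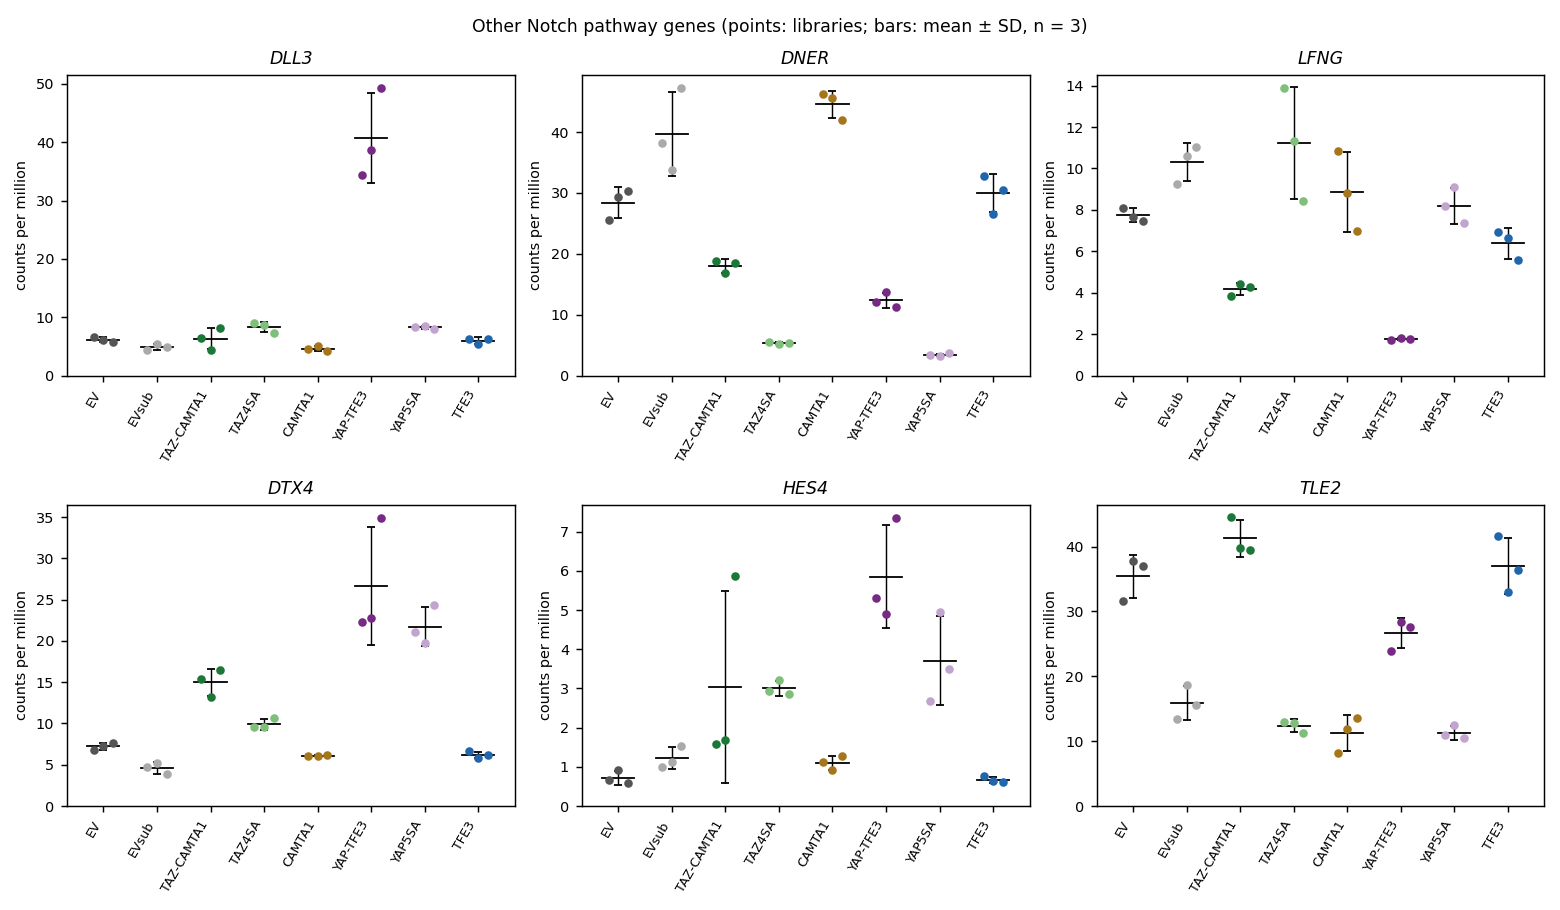
Level in CPM (vertical axis from 0) of 6 further pathway genes in the 3 libraries of each group, with mean ± SD. DLL3 stood at 34.4 to 49.3 in YAP-TFE3 and under 9 in every other library, and LFNG was lowest in YAP-TFE3.

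DLL3, a Delta-like protein known to inhibit Notch within the cell that makes it, was the clearest YAP-TFE3 gene among them. It was counted at 34.4, 38.7 and 49.3 CPM in YAP-TFE3 and at 6.56, 6.14 and 5.77 CPM in EV (log2 fold change 2.72 ± 0.16, adjusted p = 2.09e-12), and without YAP-TFE3 replicate 3 the log2 fold change was 2.57. DLL3 was also called higher than EV in YAP5SA and in the libraries labelled TAZ4SA, at means of 8.303 and 8.365 CPM. YAP-TFE3 exceeded YAP5SA by 4.913-fold (adjusted p = 2.15e-11). LFNG, a Fringe glycosyltransferase that modifies receptors and their choice of ligand, stood at 1.72, 1.82 and 1.76 CPM in YAP-TFE3 and 8.11, 7.66 and 7.47 CPM in EV (log2 fold change -2.13 ± 0.18, adjusted p = 8.15e-10). In TAZ-CAMTA1 LFNG was also lower than EV, at 3.87, 4.42 and 4.28 CPM (log2 fold change -0.89 ± 0.17, adjusted p = 0.00140). Neither fusion overlapped EV for LFNG.

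HES4 rose from 0.656, 0.914 and 0.582 CPM in EV to 5.30, 4.90 and 7.35 CPM in YAP-TFE3 (log2 fold change 3.01 ± 0.39, adjusted p = 6.70e-07). This rise was not particular to YAP-TFE3. HES4 was also called higher than EV in TAZ-CAMTA1, in YAP5SA and in the libraries labelled TAZ4SA, and the difference between YAP-TFE3 and YAP5SA did not pass the test. TAZ-CAMTA1 libraries were uneven, at 1.59, 1.68 and 5.88 CPM, and the difference between the fusions (adjusted p = 0.0211) was lost without YAP-TFE3 replicate 3 (adjusted p = 0.0923) and without TAZ-CAMTA1 replicate 1 or 2 (adjusted p = 0.122 and 0.134). DTX4, a Deltex ubiquitin ligase, was at 15.4, 13.2 and 16.4 CPM in TAZ-CAMTA1 and 6.80, 7.28 and 7.66 CPM in EV (log2 fold change 1.05 ± 0.15, adjusted p = 5.17e-05). It reached 22.3, 22.8 and 34.9 CPM in YAP-TFE3, 4.30-fold above TFE3 (adjusted p = 3.70e-11). DTX4 was also called higher than EV in YAP5SA and in the libraries labelled TAZ4SA. TAZ-CAMTA1 was called higher than the libraries labelled TAZ4SA, but the difference between YAP-TFE3 and YAP5SA did not pass the test. NEURL1B, a Neuralized-type ubiquitin ligase that acts on ligands, was 2.37-fold higher in TAZ-CAMTA1 than in YAP-TFE3 (adjusted p = 7.33e-06). Against EV, NEURL1B was called lower in YAP-TFE3 and was not called in TAZ-CAMTA1.

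DNER, a membrane protein with EGF repeats described as a Notch ligand, fell in both fusions, in YAP5SA and in the libraries labelled TAZ4SA. EV held 25.6, 29.4 and 30.2 CPM, TAZ-CAMTA1 18.9, 16.8 and 18.6 CPM (log2 fold change -0.65 ± 0.11, adjusted p = 0.000622), and YAP5SA 3.35, 3.19 and 3.66 CPM (log2 fold change -3.06 ± 0.13, adjusted p = 7.35e-15). The libraries labelled TAZ4SA held 5.46, 5.20 and 5.33 CPM (log2 fold change -2.41 ± 0.12, adjusted p = 1.89e-13). YAP-TFE3 held 12.1, 13.7 and 11.3 CPM (log2 fold change -1.20 ± 0.11, adjusted p = 7.25e-09, or -1.13 without its replicate 3), and EVsub was higher than EV (log2 fold change 0.49 ± 0.11, adjusted p = 0.00145). The decrease in TAZ-CAMTA1 differed from the effect of CAMTA1 (interaction -0.82 ± 0.16, adjusted p = 0.00313). DLK1, a non-canonical ligand also known as an inhibitor of fat cell formation, was 7.38-fold below EV in the libraries labelled TAZ4SA (adjusted p = 0.000605) and 11.2-fold below it in YAP5SA (adjusted p = 0.000229). Its replicate 3 was the lowest library in 7 of the 8 groups, for example 11.2, 12.1 and 4.46 CPM in EV.

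TLE2 and TLE1 are Groucho-type corepressors that HES proteins recruit. TLE2 stood at 31.6, 37.7 and 36.9 CPM in EV, 13.02, 12.9 and 11.3 CPM in the libraries labelled TAZ4SA (log2 fold change -1.52 ± 0.15, adjusted p = 8.81e-09) and 11, 12.5 and 10.4 CPM in YAP5SA (log2 fold change -1.65 ± 0.15, adjusted p = 2.69e-09). It was 2.23-fold lower in EVsub than in EV (adjusted p = 4.58e-06), and TLE1 was 2.21-fold lower there (adjusted p = 1.92e-06). TLE2 was also called lower than EV in YAP-TFE3, and TLE1 in YAP5SA and in the libraries labelled TAZ4SA. EP300, an acetyltransferase that works with the Notch intracellular domain, was 1.18-fold higher in CAMTA1 than in EVsub (adjusted p = 0.0330), a call lost in 7 of 32 alternatives, including those without CAMTA1 replicate 1 or 2 or any EVsub library (adjusted p = 0.0931 to 0.171).

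Counts by role were compared with EV. Of 6 nuclear activation genes, TAZ-CAMTA1 changed 0, the libraries labelled TAZ4SA 4 (RBPJ, MAML2, MAML3 and EP300, all lower), YAP-TFE3 1 (SNW1, higher), YAP5SA all 6 (SNW1 higher and 5 lower) and EVsub 5 (2 higher and 3 lower). Of 9 cleavage genes, which code for ADAM proteases, γ-secretase subunits and the furin convertase, TAZ-CAMTA1 changed 1 (lower), the libraries labelled TAZ4SA 3 (lower), YAP-TFE3 4 (higher, among them ADAM17 and NCSTN), YAP5SA 2 (lower) and EVsub 6 (1 higher and 5 lower). The shares of all genes called in these 5 comparisons were 4.98%, 49.2%, 48.2%, 44.3% and 36.8%, and differences between roles were not tested. With DESeq2 size factors these counts were the same. With total-count scaling the nuclear activation genes called were 5 lower with the TAZ4SA label, 1 higher and 1 lower in YAP-TFE3, 5 lower and 0 higher in YAP5SA, and 3 lower and 0 higher in EVsub. The cleavage genes called were then 4 lower with the TAZ4SA label, 3 higher in YAP-TFE3 and 6 lower in YAP5SA. Under that scaling the median log2 change of all genes moved by -0.197 in the libraries labelled TAZ4SA and by -0.185 in YAP5SA, both against EV, and by 0.198 in TAZ-CAMTA1 against the libraries labelled TAZ4SA. All genes called were then 3355 higher and 7317 lower for the TAZ4SA label (5013 and 4835 with TMM), 4321 and 5536 in YAP-TFE3 (5125 and 4519), 3134 and 6842 in YAP5SA (4534 and 4325), 3106 and 4289 in EVsub (3956 and 3412), 222 and 169 in CAMTA1 (252 and 114), 7486 and 3695 in TAZ-CAMTA1 against the libraries labelled TAZ4SA (5376 and 5354), 6562 and 4043 in YAP-TFE3 against YAP5SA (5618 and 4867), 4223 and 5702 in YAP-TFE3 against TFE3 (5089 and 4503), and 5094 and 3763 in TAZ-CAMTA1 against YAP-TFE3 (3970 and 4564).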

How the data were processed

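Per the labels, RNA was prepared with a stranded poly(A) kit. Reads were aligned to hg38 with Hisat2 in bcbio-nextgen. The authors deposited 1 table of whole-number counts per library, neither normalized nor pooled. The study's methods also name Salmon, with tximport to gene-level counts. Whether the deposited whole numbers came from it or from the alignments, and how strand was used, are not given in the sources used here, so overlapping genes were treated as uncertain. Gene coordinates and exon lengths are from GENCODE (GRCh38), which held 56104 of the 60279 identifiers. Libraries were grouped by title.

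Counts were tested with edgeR 4.0.16 (quasi-likelihood F test, R 4.3.3) in 1 fit over 24 libraries, after TMM scaling, on the 19997 genes whose mean count was 5 or more. The p-values were adjusted by Benjamini-Hochberg over all of them. DESeq2 1.42.0, other filters and scalings, the replicate block, the groups compared alone and each library left out were alternatives, and leaving out the 3 libraries labelled TAZ4SA was added after seeing the data. Scripts were tested on simulated data. Limits of 0 (3 counts) cover counting error only, whereas the SDs and SEs also include differences between libraries.

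The members and lists were chosen with earlier results of these data known. Text names all members and construct genes, up to 3 called pathway genes per comparison with the largest change and a mean of at least 100 counts, pathway genes at 0, and the 2 genes closest in profile to each member, except that some names and the nearest genes of NOTCH4 are not reported here. Members by role, and marker genes, are named as listed. NRARP, and DNER in YAP-TFE3, were added after their values were seen. Replicates were separate transductions, per the study's methods. Same-numbered libraries had mean correlations of -0.0964 to 0.129 per comparison, and in 0 comparisons was every pair over 0.1. Libraries were therefore not paired by number in the main fit. Such correlations over all genes can miss a pattern by number in single genes. JAG1 was lowest in replicate 3 in every confluent group and highest there in EVsub and CAMTA1. The reason was not tested.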

Additional observations from a re-analysis of the deposited data

How the results depend on the processing

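The 48 pairs of member and comparison that were called gave 1523 values under the alternatives. Of these, 1476 kept their direction and their side of the threshold, 47 kept the direction but lost the call and 0 reversed. The 22 losses of JAG1 in YAP5SA against EV, 8 of DLL1 in TAZ-CAMTA1 against the libraries labelled TAZ4SA and 8 of NOTCH2 in CAMTA1 against EVsub made up most. Of 1146 counts of called genes, 1083 stayed within 1.5 times the value reported. The cause of the other 63 was not tested.

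Members called in TAZ-CAMTA1 against EV were 4 without a filter beyond 1 count and 3 with the groups compared alone, where 8 other pathway genes were called. YAP5SA against EV had 3 members under total-count scaling. In TFE3 against EV, all genes called were 40 without that filter, 2 with the groups alone and 15 by DESeq2. In CAMTA1 against EVsub, all genes called were 652 without the filter and 662 with the groups alone, with 2 members in each. DESeq2 called 5 pathway genes there, and leaving out the libraries labelled TAZ4SA left 0 members. The interaction called 1 member under total-count scaling, without the filter, with the groups alone and by DESeq2, 892 and 842 genes in all without the filter and with the groups alone, and 1 pathway gene without the libraries labelled TAZ4SA.

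Leaving out 1 library at a time gave 544 (without EV replicate 2) to 1365 genes (without YAP-TFE3 replicate 3) and 1 to 2 members in TAZ-CAMTA1 against EV, 3 to 6 members in YAP5SA, 1 to 12 genes in TFE3, and 3 to 5 members in EVsub. For CAMTA1 it gave 176 (without EVsub replicate 2) to 569 genes (without YAP-TFE3 replicate 3), 0 to 1 members and 0 to 6 pathway genes, and for the interaction 0 to 1 members and 1 to 4 pathway genes. With the replicate number as a block, all 48 member calls and all 36 counts stayed on their side. Depth limits DLL1 and NOTCH4 most.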

Other observations

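Genes whose profile over the 8 group means lay closest to a member were found among 12154 candidate genes or, for low members, 12155, each with a mean of at least 100 counts, by the root mean square difference of centered log2 CPM. For HEY1, whose own profile had a root mean square of 1.20, they were ITGA9, an integrin subunit (0.147), and IRAG1 (0.202). For NOTCH2 (own 0.394) they were PAM, a peptide-amidating enzyme (0.0738), and PHACTR4 (0.107), and for NOTCH3 (own 0.688) CDK18 (0.105) and EPOR, the erythropoietin receptor (0.139). NOTCH1 lay closest to CDCP1 (0.139) and RAP1GAP2 (0.142), and JAG1 to STON2 (0.111) and KDM8 (0.164). JAG2 lay closest to HIP1R (0.0744) and NLRP1 (0.0951). HES1 was nearest to PCYT2, an enzyme of phosphatidylethanolamine synthesis (0.0654), and FKBP14 (0.118). For DLL1 and HEYL, both low, the nearest genes lay farther away, at 0.277 and 0.278 for DLL1 (HHAT and DUSP2) and 0.221 and 0.223 for HEYL (RFTN1 and KLHL29). These are likenesses over 8 means and describe no shared control.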
